A study of Mus musculus with 8 samples.

Results

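The 9 genes described here encode components, receptors and regulators of the complement system: *C1qa*, *C1qb*, *C3*, *C4b*, *C3ar1*, *C5ar1*, *Cfb*, *Serping1* and *Cd55*. They were taken by gene name from the annotation of the arrays, with every probe that carries one of these names, and the rule itself uses no measured value. All 9 genes were found, with 13 probes among the 41174 non-control probes and the 21589 gene names of the arrays. The complement system is a cascade of plasma and tissue proteins. In the classical pathway, C1q binds a target and its proteases cleave C4, whose fragment helps form the enzyme that splits C3. The alternative pathway, with factor B, amplifies that step, and the small fragments of C3 and C5 signal through the receptors encoded by *C3ar1* and *C5ar1*. C1 inhibitor (*Serping1*) blocks the first proteases and decay-accelerating factor (*Cd55*) dissociates the C3-cleaving enzyme. In brain, microglia are a main source of C1q, and astrocytes and microglia can produce C3 and C4.

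The RNA came from the ipsilateral (right) hemisphere of male C57BL/6J mice of 8 to 12 weeks, without olfactory bulb and cerebellum. Mice had either permanent middle cerebral artery occlusion (PMCAO), made with an intraluminal filament, or a sham operation, and all were then injected into the ventricle with saline or 1 pmol of PACAP38 in 1 μl. PACAP38 is a neuropeptide of the secretin family. Hemispheres were taken at 6 h or 24 h, which gives the 8 groups sham and PMCAO, saline and PACAP38, 6 h and 24 h. Each group is 1 pool of RNA from 3 mice, and mice with PMCAO had been selected for neurological grades 1 and 2, so that the values describe 1 pool each and hold no error between mice. No genotype other than the strain is given. The whole hemisphere holds ischemic core, border zone and tissue outside the lesion.

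The 8 arrays hybridized PACAP38 and saline RNA of the same surgery and time together. Array 1 of each comparison had PACAP38 in Cy5 and array 2 had it in Cy3, with the same RNA according to the methods, although the labels number the arrays as 2 pools; the 2 arrays were taken as 1 replicate. All 6 h arrays lay on one slide and all 24 h arrays on another, so time and slide cannot be told apart. Array 2 of sham at 6 h stood apart. There 10.7% of its spots were marked as outliers, against 0.323% to 3.09% on the other 7 arrays, and its log2 signals correlated with those of the other 6 h arrays at r = 0.909 to 0.935 in Cy3 and 0.924 to 0.927 in Cy5. The 6 h differences between PMCAO and sham are therefore given for the members also from array 1 alone. After the sign was turned to PACAP38 over saline, the log2 ratios of both dye orientations correlated over all probes at r = -0.15 (sham, 6 h), -0.14 (PMCAO, 6 h), -0.42 (sham, 24 h) and 0.05 (PMCAO, 24 h). The direction rests on the dyes that the labels of the arrays state.

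The probes are 60-mers, and the letters of a probe say what was measured. Those of *Cfb*, *Serping1* and the brighter *Cd55* probe are shown whole because their ends lie further apart in the genome than their length (as do those of the second *C3* probe, which no channel detected), so each crosses at least 1 intron and reads spliced RNA. In the coordinates of the files (build mm7, minus strand) the *Cfb* probe runs over chr17:32952681-32953037, the *Serping1* probe over chr2:84609527-84611033 and the *Cd55* probe over chr1:130344430-130352416.
Cfb: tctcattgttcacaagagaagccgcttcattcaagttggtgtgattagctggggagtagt
Serping1: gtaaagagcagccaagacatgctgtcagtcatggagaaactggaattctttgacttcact
Cd55: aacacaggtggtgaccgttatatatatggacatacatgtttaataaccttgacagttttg
The remaining probes lie in a single stretch, and the first 30 bases are shown for those that the results turn on. For *C3* this is the probe at chr17:55414567-55414626, which was spotted 10 times on each array. *C3ar1* has a pair of probes, the brighter at chr6:122885185-122885244 and the dimmer at chr6:122885659-122885718.
C3: attcacagaatctatggtggtttatggttg
C3ar1, brighter probe: tgccatcatctcagtgtagcacacacaatc
C3ar1, dimmer probe: caggatcaatgcatgcttcaacagcaatat
C4b: tcactggagcgaagggtggaggacaaggat
The annotation of the *C4b* probe also lists a transcript of its near-identical neighbour *C4a*, so the RNA of these genes cannot be told apart there. A separate *C4a* probe was not well above background on any array.

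The bases before the transcription start were available from RefSeq (GRCm38.p6) for *C3*, *C3ar1*, *C1qb*, *C5ar1* and *Cd55* of the members. The 250 bases before the start are shown for *C3* and *C3ar1*, which differed most between PMCAO and sham at 24 h, and for *C1qb*, which was at 1.19-fold. Capitals mark matches on either strand to a motif searched for. The motifs were GAGGAA (PU.1), TGANTCA (AP-1), TTCNNNGAA (STAT) and TTGCNNAA (C/EBP), and no marked matches overlap.
C3, chr17:57228137-57228386, minus strand: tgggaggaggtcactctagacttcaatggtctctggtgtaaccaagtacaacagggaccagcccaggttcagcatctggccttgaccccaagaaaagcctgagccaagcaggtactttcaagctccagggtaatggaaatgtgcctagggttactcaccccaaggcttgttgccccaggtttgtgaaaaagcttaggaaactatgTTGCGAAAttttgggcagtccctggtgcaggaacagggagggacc
C3ar1, chr6:122856158-122856407, minus strand: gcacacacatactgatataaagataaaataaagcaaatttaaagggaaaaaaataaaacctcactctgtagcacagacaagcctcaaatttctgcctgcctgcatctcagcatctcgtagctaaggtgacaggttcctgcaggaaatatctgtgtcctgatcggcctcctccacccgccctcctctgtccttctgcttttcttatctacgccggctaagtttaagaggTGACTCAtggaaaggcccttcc
C1qb, chr4:136886201-136886450, minus strand: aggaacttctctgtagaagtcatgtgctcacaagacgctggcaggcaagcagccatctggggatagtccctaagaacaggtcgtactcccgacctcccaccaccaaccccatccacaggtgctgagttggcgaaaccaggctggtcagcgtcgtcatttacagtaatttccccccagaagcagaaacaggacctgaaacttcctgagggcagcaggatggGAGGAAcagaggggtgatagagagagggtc
*C3* held 1 match to the C/EBP motif, which 9.56% of the 32851 promoters hold. *C3ar1* held 1 match to the AP-1 motif, present in 6.75% of promoters, and *C1qb* held 1 match to the PU.1 motif, present in 23.3%. The STAT motif, present in 7.02% of promoters, was found in none of these 3 stretches. The stretches of *C5ar1* and *Cd55* held none of the 4 motifs.

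Levels are given as log2 of the processed signal over the 75th percentile of its channel, and a level compares samples for one probe only. *C1qa*, *C1qb*, *C3*, *C4b*, *Serping1* and *Cd55* were well above background in all 16 channels (2 per array). *Cfb* was well above background in 13 channels and *C3ar1* in 8 with the brighter and 3 with the dimmer probe. *C5ar1* reached this level in 1 channel, the Cy5 channel of the PMCAO saline pool at 6 h. The second *C3* probe and the third *Cd55* probe did so in none. No member was saturated.

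**Figure D1:**
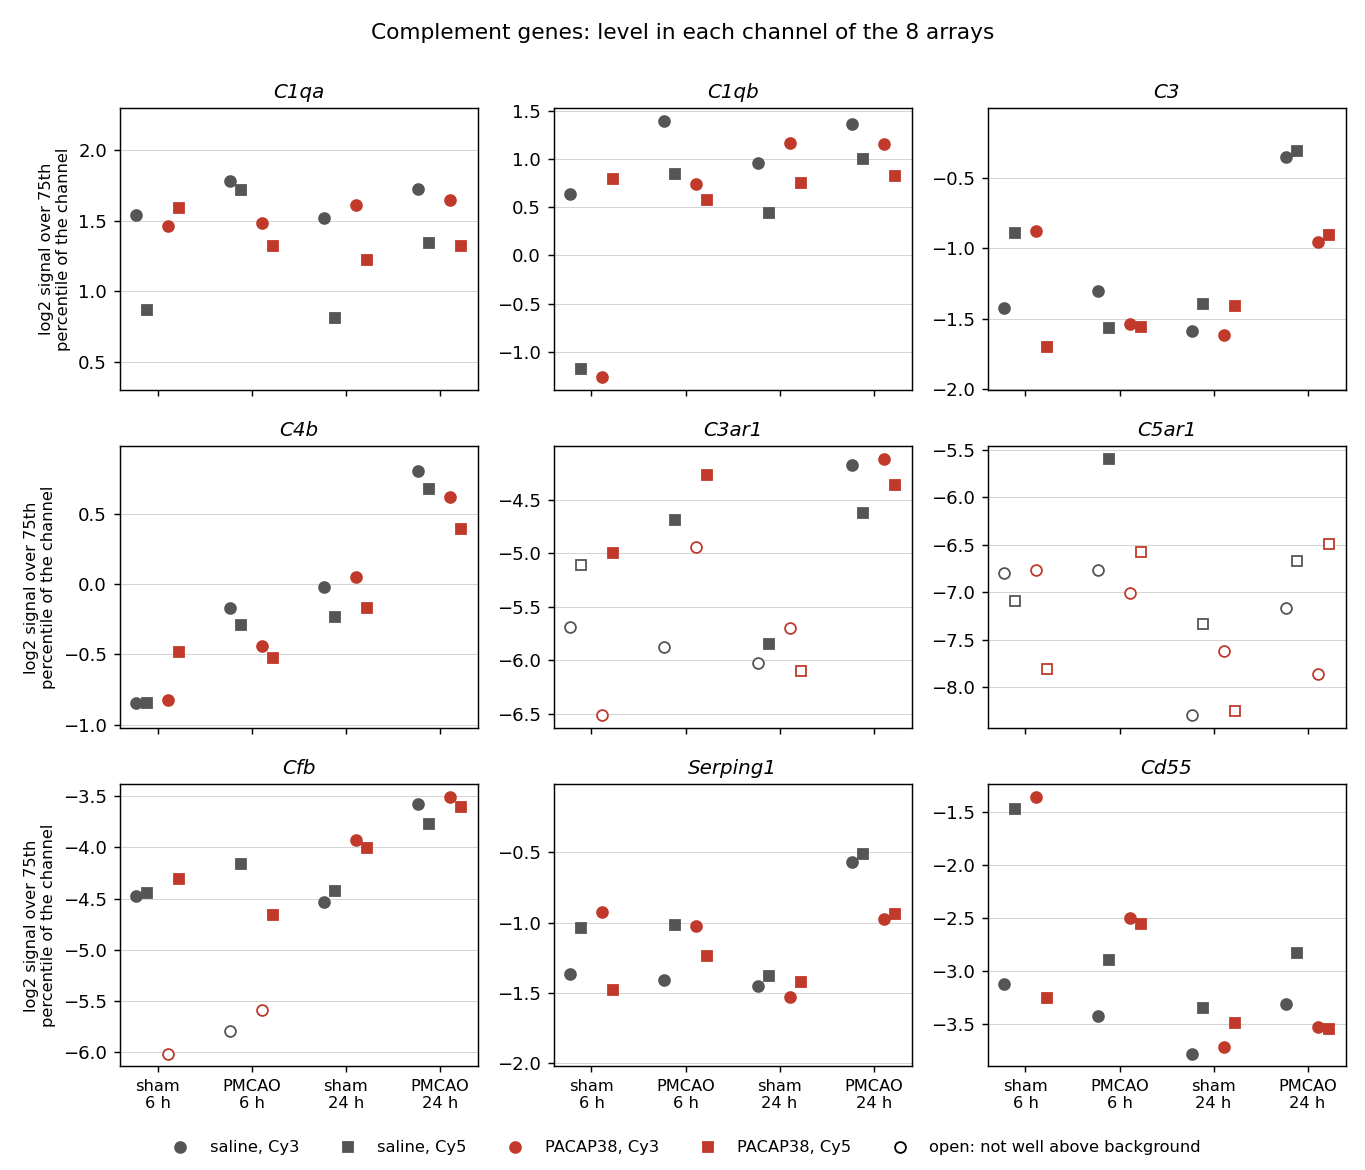
Level of the 9 complement genes, each by its brightest probe, in every channel of the 8 arrays (log2 signal over the 75th percentile of the channel), with saline in gray, PACAP38 in red, Cy3 as circles, Cy5 as squares and open symbols for channels not well above background. At 24 h *C3*, *C4b* and *Serping1* are higher in all 4 PMCAO channels than in all 4 sham channels. The share of all probes separated in this way was not counted. At 6 h the *C1qb* and *Cd55* channels of sham array 2 (Cy5 saline, Cy3 PACAP38) lie apart from the others.

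The first comparison asked how the genes differed between PMCAO and sham hemispheres at 24 h. For *C3ar1*, *C3*, *C4b*, *Serping1* and *Cfb* every PMCAO channel lay above every sham channel. The 4 channels of a group are 2 pools read on the same 2 arrays, and the share of all probes separated in this way was not counted. The fitted difference was 1.52-fold to 1.83-fold for *C3*, *C4b*, *Serping1* and *Cfb* and 3.02-fold for *C3ar1*. Only 1 of 4 sham channels of *C3ar1* was well above background. The C1q chains and *Cd55* were within 1.21-fold of sham. PMCAO and sham were compared within one dye and one drug, and tested with limma over the 8 pools, with 2 pools a group and adjustment over 40082 probes. *C3ar1* passed the test with both probes and no other member did. Of the 13 member probes, 2 were called higher and 0 lower, against 2.11% of all probes called higher and 1.07% called lower. The median log2 difference was 0.61 over the 13 probes and 0.00 over all probes.

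*C3ar1* encodes the receptor of the C3a fragment. Its processed signal on array 1 and array 2 was 56.1 and 40.7 in the saline and 49.0 and 57.1 in the PACAP38 channels of PMCAO at 24 h. In sham it was 15.8 and 18.4 in the saline and 14.9 and 20.3 in the PACAP38 channels, and only 1 of these 4 sham channels was well above background. The channels of the groups did not overlap, and the share of all probes for which this holds was not counted. *C3ar1* was 3.02-fold higher (log2 1.60, SE 0.24, limma adjusted p = 0.0347), and the dimmer probe, well above background in 3 PMCAO channels and no sham channel, was at least 1.60-fold higher against the lowest signal counted as above background (adjusted p = 0.0317). In separate pools the log2 difference of the brighter probe was 1.54 for saline and 1.66 for PACAP38.

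*C3*, the central component, had log2 levels (array 1 first, as below) of -0.35 and -0.31 in the saline and -0.91 and -0.95 in the PACAP38 channels of PMCAO at 24 h. In sham they were -1.58 and -1.39 for saline and -1.41 and -1.62 for PACAP38. All 4 PMCAO channels were above the sham channels (share of all probes not counted), and the saline channels of PMCAO were above those of PACAP38. The difference was 1.83-fold (log2 0.87, SE 0.17, adjusted p = 0.0592), with a log2 difference of 1.16 in the saline pools and 0.58 in the PACAP38 pools. It passed the threshold with a prior that follows the mean signal (adjusted p = 0.00633) and among probes well above background (adjusted p = 0.028). It did not pass with the 2 arrays of a group as the samples (limma adjusted p = 0.611), nor from either array alone.

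*C4b*, the classical pathway component that C1 cleaves, had log2 levels of 0.80 and 0.67 in saline and 0.39 and 0.61 in PACAP38 channels of PMCAO. Sham channels lay at -0.02 and -0.23 for saline and -0.17 and 0.05 for PACAP38. Again every PMCAO channel was above every sham channel, a separation whose share over all probes was not counted. The difference was 1.64-fold (log2 0.71, SE 0.15, adjusted p = 0.0726). *Serping1* had log2 levels of -0.57 and -0.52 in saline and -0.94 and -0.97 in PACAP38 channels of PMCAO, and from -1.53 to -1.38 in the 4 sham channels. Its difference was 1.62-fold (log2 0.69, SE 0.15, adjusted p = 0.0753), with 1.83-fold in the saline and 1.43-fold in the PACAP38 pools. *Cfb*, the protease subunit of the alternative pathway enzyme, had levels of -3.78 to -3.51 in PMCAO and -4.54 to -3.93 in sham, 1.52-fold apart (adjusted p = 0.296).

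The C1q chains did not pass the test at 24 h. *C1qa* was 1.16-fold (adjusted p = 0.602) and *C1qb* 1.19-fold (adjusted p = 0.526) the sham level. The 95% intervals of the log2 difference, -0.25 to 0.68 and -0.21 to 0.72, include 0 and overlap the interval of *C3* (0.45 to 1.29), and the difference between genes was not tested. *Cd55* was 1.21-fold with the brighter probe (adjusted p = 0.626) and 1.02-fold with the dimmer one (adjusted p = 0.929). *C5ar1*, the C5a receptor, was not well above background in any channel at 24 h and has no fold.

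Both pools of a surgery group were read on the same arrays, so that a difference between arrays is not part of the spread between pools and these p-values are too small. With the 2 arrays of a group as the samples, none of the members was called at 24 h in limma, and 0.349% of all probes were. An unadjusted p under 0.05 was found for 5 member probes (adjusted p = 0.105 for *C3ar1*, 0.402 for *C4b* and 0.611 for *C3*). The 2 arrays read the same pools, so this fit holds the spread between arrays and none between pools or mice. With the PMCAO saline or the sham saline pool of 24 h left out, 0 member probes were called, with any other pool left out 1, and from either array alone 0.

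**Figure D2:**
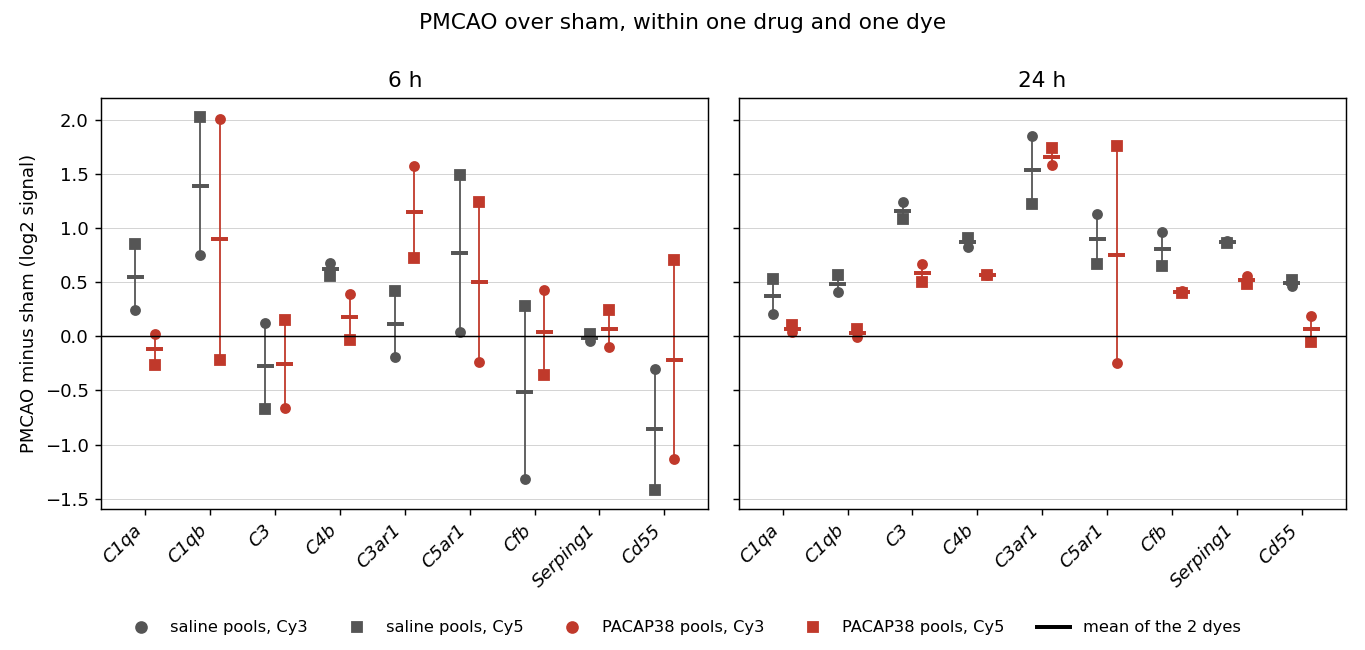
PMCAO minus sham (log2 signal) for the brightest probe of each gene at 6 h and 24 h, within Cy3 (circles) and Cy5 (squares), for saline pools in gray and PACAP38 pools in red, with the mean of the 2 dyes as a bar. At 24 h the saline pools differ by 1.16 for *C3* and 0.87 for *Serping1* and the PACAP38 pools by 0.58 and 0.52. At 6 h the dyes of *C1qb*, *Cd55* and *C5ar1*, and those of *Cfb* in the saline pools, spread over more than 1 log2 unit. *C5ar1* was below the background limit in nearly all channels.

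In single pools at 24 h, 7 of 13 probes were above 1.5-fold in saline pools, where 9.08% of all probes were. The 7 were the brighter probes of *C3*, *C4b*, *C5ar1*, *Cfb* and *Serping1* and both of *C3ar1*. In PACAP38 pools 3 of 13 were (both *C3ar1* probes and *C5ar1*, the latter below the background limit in all 24 h channels), against 6.26% of all probes. A pool has no replicate, and the difference of the surgery effect between saline and PACAP38 was not tested at one time.

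Marker levels of several cell types differed between the groups at 24 h. The summed level (linear, over the 75th percentile) of 11 neutrophil markers was 0.821 and 1.19 in the sham pools. It was 49.2 and 6.01 in the saline and PACAP38 pools of PMCAO, with *Camp* and *Elane* not well above background in any channel. Over the pools 0 of these 11 were called (*S100a8* limma adjusted p = 0.0684, and 0.025 with arrays as samples). For 9 monocyte and macrophage markers, all detected, the sums were 7.69 and 8.84 in sham, 17.1 in PMCAO saline and 9.90 in PMCAO PACAP38. For 11 microglia markers, all detected, they were 33.9 and 37.2 in sham and 30.2 and 27.8 in PMCAO. Of the microglia markers 1 was called higher (*Cd68*) and 1 lower (*Siglech*), and of the monocyte and macrophage markers 2 were called higher (*Cd163*, 2.09-fold, and *Plac8*, 2.36-fold). For 8 astrocyte markers the sums were 129 and 128 in sham and 146 and 135 in PMCAO. Of these *Aldh1l1* was called higher (adjusted p = 0.000324, but 1.00 with arrays as samples, with 2 of 4 sham channels well above background), and *Gfap* was at 2.03-fold (adjusted p = 0.0557). For 8 endothelial markers the sums were 26.9 and 29.1 in sham and 33.1 and 26.0 in PMCAO, and 0 were called. Of the 8 endothelial markers 4 lay above sham, with a median log2 difference of 0.05. *Cdh5* was at 2.27-fold (adjusted p = 0.173) and *Pecam1* at 1.98-fold (adjusted p = 0.0872). *Tek* was at 0.569-fold (adjusted p = 0.0901) and *Kdr* at 0.677-fold (adjusted p = 0.176). The part of these cells in the complement values was not tested, and in bulk RNA more cells of a type and more RNA per cell cannot be told apart.

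At 6 h the values of several members differed widely between the sham array that stood apart and array 1. The test called 16.7% of all probes higher and 26.2% lower in PMCAO, and of the 13 member probes 2 higher (*C1qb* and *C5ar1*) and 1 lower (the dimmer *C3ar1* probe). *C1qb* had log2 levels of 1.39 and 0.84 in the saline and 0.57 and 0.74 in the PACAP38 channels of PMCAO. In sham it was 0.64 (saline) and 0.79 (PACAP38) on array 1, but -1.18 and -1.27 on array 2. The fitted difference of 2.21-fold (log2 1.14, SE 0.19, adjusted p = 0.00554) was a log2 value of 0.27 on array 1 alone and 2.02 on array 2 alone.

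*C5ar1* gave 0.64 on array 1 and 0.63 on array 2, with no sham channel and 1 PMCAO channel well above background at 6 h. The dimmer *C3ar1* probe gave -0.39 and -1.56, with none of its 6 h channels well above background, while the brighter one was at 0.63 (adjusted p = 0.0841).

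The brighter *Cd55* probe showed the opposite of *C1qb*, with sham levels of -3.13 and -3.25 on array 1 and -1.47 and -1.36 on array 2. Its log2 difference between PMCAO and sham was 0.20 on array 1 and -1.28 on array 2. The dimmer *Cd55* probe, also well above background in all 16 channels, did not share this, with log2 differences of 0.23 on array 1 and 0.34 on array 2. The brightest probes of *C1qa*, *C3*, *C4b*, *C3ar1*, *Serping1* and *Cfb* gave log2 differences of -0.01, 0.13, 0.32, 0.27, 0.10 and -0.84 on array 1 alone. With arrays as samples 0 member probes were called in limma at 6 h (1 had an unadjusted p under 0.05), and from array 1 of every comparison alone 0 were called as well (1 with an unadjusted p under 0.05). Above 1.5-fold or below 0.75-fold in the single pools were 3 and 4 member probes with saline, against 19.4% and 35.2% of all probes, and 2 and 1 with PACAP38, against 16.7% and 31% of all probes.

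The difference of the surgery effect between 24 h and 6 h was called for 2 member probes, both higher at 24 h, whereas 17.3% of all probes were called higher and 9.82% lower. The *C3* difference was larger at 24 h by a log2 value of 1.14 (SE 0.24, adjusted p = 0.021), and by 0.73 with array 1 of every comparison alone. The dimmer *C3ar1* probe gave 2.74 (SE 0.36, adjusted p = 0.00743), but none of its 6 h and no sham channel was well above background, so this is no measured size. The brighter *C3ar1* probe gave 0.97 (adjusted p = 0.0887) and was not called. Neither of the called probes was called with arrays as samples, where *C3* had an adjusted p of 0.740 and the *C3ar1* probe one of 0.636.

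The second question was what PACAP38 did within each surgery and time. The mean of both dye orientations is used, a probe counts as changed above 1.5-fold or below 0.75-fold, and there is no test in a comparison of 1 pool with 1 pool. In PMCAO at 24 h *C3* was lower with PACAP38, at 0.656-fold, and *Serping1* (0.746-fold) and *Cd55* (0.721-fold) were below the limit too. *C3* was the only member past a limit on both arrays in any of the 4 comparisons, and in PMCAO at 24 h 3.75% of all probes were below 0.75-fold on both.

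For *C3* in PMCAO at 24 h the log2 ratio was -0.57 with PACAP38 in Cy5 and -0.65 with PACAP38 in Cy3. The 10 spots of the probe ranged from -0.62 to -0.51 on array 1 and from -0.70 to -0.60 on array 2, so each of the 20 spots was below 0. Spots repeat the same RNA and are no replicates. In sham at 24 h the spots of each array also shared a sign, from 0.12 to 0.22 on array 1 and from -0.28 to -0.19 on array 2. In sham the arrays of 24 h gave 0.17 and -0.23. Those of 6 h gave -0.28 and 0.02, and the PMCAO arrays of 6 h gave -0.26 and 0.02. The array values of these 3 comparisons differed in sign with the dyes. *Serping1* gave -0.38 and -0.47 in PMCAO at 24 h and means of -0.00 (sham, 6 h), 0.08 (PMCAO, 6 h) and -0.07 (sham, 24 h) elsewhere. *Cd55* gave -0.24 and -0.70 in PMCAO at 24 h with its brighter probe, and 0.10 and -0.14 with its dimmer one.

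Of the 13 member probes, 0 were above 1.5-fold and 5 below 0.75-fold in PMCAO at 24 h, against 2.99% and 8.18% of all probes. Beside *C3*, *Serping1* and the brighter *Cd55* probe these were the dimmer *C3ar1* probe (0.714-fold, arrays -0.24 and -0.74) and a *Cd55* probe not well above background. The brighter *C3ar1* probe was at 1.11-fold, with arrays of opposite sign (-0.20 and 0.49). *C4b* was at 0.845-fold, *C1qa* at 0.958-fold, *C1qb* at 0.866-fold and *Cfb* at 1.08-fold.

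Some markers of leukocytes and of other cells were lower in the same comparison. Below 0.75-fold were 0 of 6 T cell markers (median log2 ratio 0.14) and 0 of 9 neuron markers (median 0.04). The T cell markers *Cd3d*, *Cd3g*, *Cd4* and *Cd8a* had no channel well above background there. Of 11 neutrophil markers, 9 were below 0.75-fold on both arrays, and the median log2 ratio was -1.84. These 9 include *Camp*, not well above background in any channel, and *Ngp* and *Ltf*, well above background in only 1 of the pools compared. Of 9 monocyte and macrophage markers 3 were below the limit on both arrays with a median of -0.36, of 11 microglia markers none was with a median of -0.08, and the median over all probes was 0.00. Below the limit on both arrays were also 2 of 8 endothelial markers (*Cdh5*, 0.387-fold, and *Pecam1*, 0.647-fold, while *Slco1a4* was above 1.5-fold on both at 1.86-fold) and 3 of 8 meningeal and fibroblast markers (*Col3a1*, *Dcn* and *Lum*, from 0.525-fold to 0.551-fold), and 0 of 8 astrocyte markers. Their part in the lower *C3*, *Serping1* and *Cd55* was not tested. The comparison with sham at 24 h shares the PMCAO pools with this one, so the larger surgery effect of saline pools and the lower PACAP38 ratio are not independent.

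In PMCAO at 6 h, 2 probes were above 1.5-fold (*Cd55* and *C3ar1*) and 2 below 0.75-fold (*C1qb* and *C5ar1*), against 5.41% and 6.9% of all probes. *Cd55* was at 1.55-fold, with array values of 0.87 and 0.40, while its dimmer probe, also well above background, was at 0.857-fold (0.04 and -0.49). *C3ar1* (1.60 and -0.26) and *C5ar1* (0.19 and -1.40) changed sign between arrays and were near background. *C1qb* gave -0.82 and -0.10, a mean of 0.726-fold. In sham, 0 probes were above and 2 below at 6 h, against 3.98% and 7.48% of all probes. They were *Cfb*, whose arrays gave 0.17 and -1.56, and a *Cd55* probe not well above background. At 24 h 0 were above and 1 below, that same *Cd55* probe, against 1.75% and 3.87% of all probes. *Cfb* was at 1.42-fold in sham at 24 h, the same on both arrays (0.52 and 0.49) and under the limit.

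**Figure D3:**
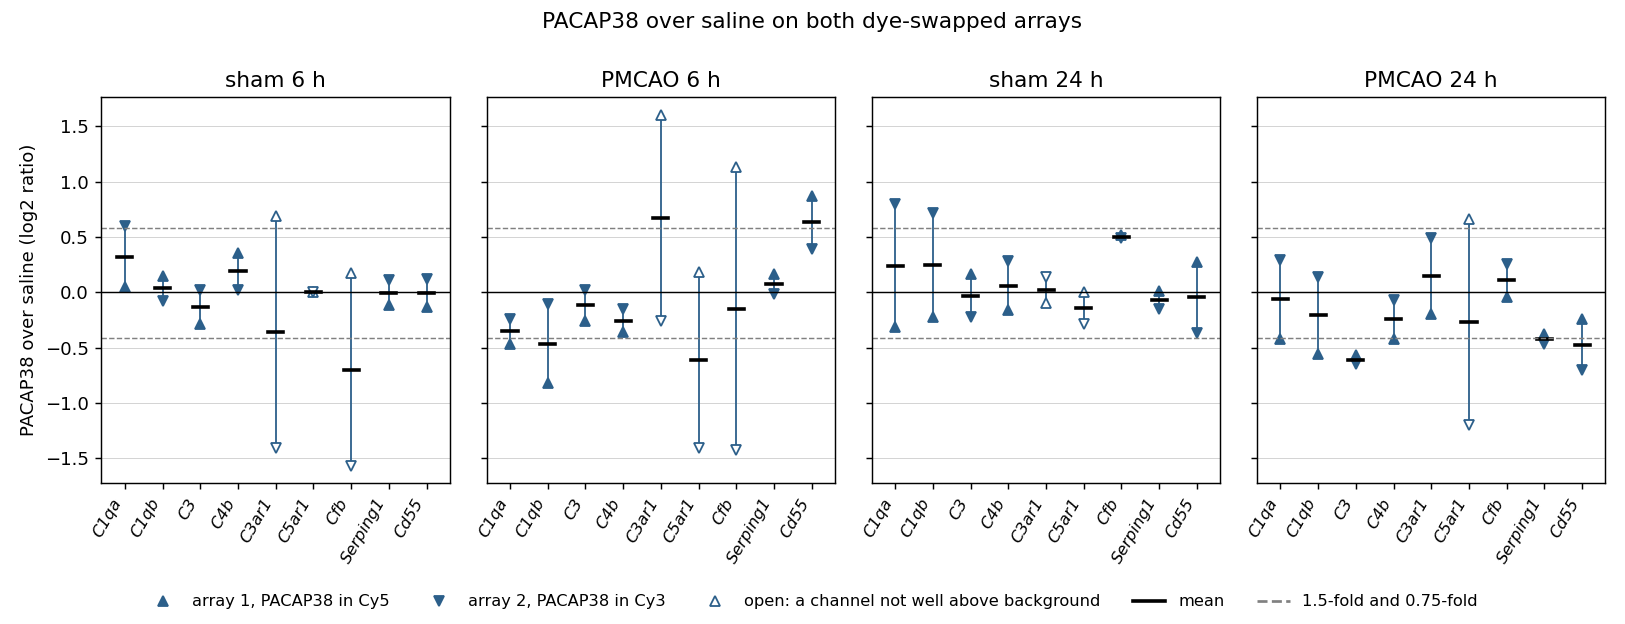
PACAP38 over saline (log2 ratio) for the brightest probe of each gene in the 4 comparisons, with array 1 (PACAP38 in Cy5) as upward and array 2 (PACAP38 in Cy3) as downward triangles, their mean as a bar, the 1.5-fold and 0.75-fold limits as dashed lines, and open symbols where a channel was not well above background. The arrays of *C3* in PMCAO at 24 h lie together at -0.57 and -0.65, while those of *C1qa* and *C1qb* at 24 h lie on both sides of 0.

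Over the 4 pairs of pools, limma called 0 of 36121 probes for the mean ratio (1782 with an unadjusted p under 0.05), and *C3* had a mean log2 ratio of -0.22 (95% interval -0.56 to 0.12, adjusted p = 0.871). The ratio of *C4b* was above 1 in both sham and below 1 in both PMCAO comparisons, with log2 means of 0.19 and 0.06 in sham at 6 h and 24 h and -0.26 and -0.24 in PMCAO, although the arrays of sham at 24 h had opposite signs (-0.16 and 0.28). The difference of PMCAO from sham was -0.37 (SE 0.07, limma adjusted p = 0.75). *C1qa* gave 0.32 and 0.24 in sham and -0.35 and -0.06 in PMCAO, with arrays of opposite sign in both 24 h comparisons, a difference of -0.49 (SE 0.13, limma adjusted p = 0.765). No probe passed the adjusted threshold for that difference (2337 with an unadjusted p under 0.05) or for 24 h minus 6 h (1887 with an unadjusted p under 0.05).

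Among the wider complement genes, 44 genes beside the 9 members had a probe, and 36 of them were well above background in at least 1 channel. At 24 h, 1 of 43 tested was higher in PMCAO and 1 lower, against 2.11% and 1.07% of all probes. The higher one was *C4bp*, whose product binds C4b and helps its breakdown. It was 2.39-fold higher (log2 1.25, SE 0.21, limma adjusted p = 0.0428), with 1.32 in saline and 1.19 in PACAP38 pools, and was not called with arrays as samples (adjusted p = 0.514). *C6*, a terminal component, was called lower (adjusted p = 0.0343, and 1.00 with arrays as samples), with 2 of 4 sham channels and no PMCAO channel well above background, and has no fold. The median log2 difference of the 43 genes was 0.12. By group, the medians were 0.21 for 16 classical and lectin genes, 0.00 for 4 alternative and central genes, 0.09 for 6 terminal genes, 0.14 for 17 regulators and 0.72 for 9 receptors, members included. At 6 h 4 of the 43 were called higher and 12 lower, against 16.7% and 26.2% of all probes. Called higher were *Masp2*, *Cfd*, *C6* and *Itgam* (log2 0.47, 1.06, 1.04 and 1.07). *Masp2* and *C6* lay above 0 on both arrays, *Itgam* was at 0.67 on array 1 and had no array 2 value, and *Cfd*, well above background in 1 of 16 channels, gave 2.46 on array 1 and -0.33 on array 2. Among the 12 called lower were *C1qc*, *C1ra*, *Mbl2*, *Masp1*, *Colec12*, *Cr1l*, *Clu*, *Csmd3*, *Cpn2*, *C5ar2* and *Cr2*. Of these, *C1ra*, *Mbl2*, *Clu* and *Cpn2* had log2 differences above 0 on array 1 alone (0.43, 0.60, 0.15 and 0.07). *Mbl2* was well above background in no 6 h channel and *Cpn2* in 1 of 16 channels, so their differences are no measured sizes.

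With PACAP38 in PMCAO at 24 h, 4 of the 9 receptors were below 0.75-fold on both arrays, where 3.75% of all probes were. They were *Cd93* (0.433-fold), *Itgax* (0.463-fold, 7 of 16 channels well above background), *Itgam* (0.628-fold) and *Itgb2* (0.663-fold). *Itgam*, *Itgax* and *Itgb2* encode the integrin chains of complement receptors 3 and 4 of leukocytes, and *Cd93* is a receptor of myeloid and endothelial cells. Several of the neutrophil, monocyte, endothelial and fibroblast markers given above were lower in the same pool, and their part was not tested. Of the 18 regulators, *Cpn1* was past the limit on both arrays, with 3 of 16 channels well above background. In the other comparisons the genes past a limit on both arrays were *Cd46* and *Cpn1* in sham and *Cfi* in PMCAO, all at 6 h, and none was well above background in both groups compared. No wider gene was above 1.5-fold on both arrays in any comparison.

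**Figure D4:**
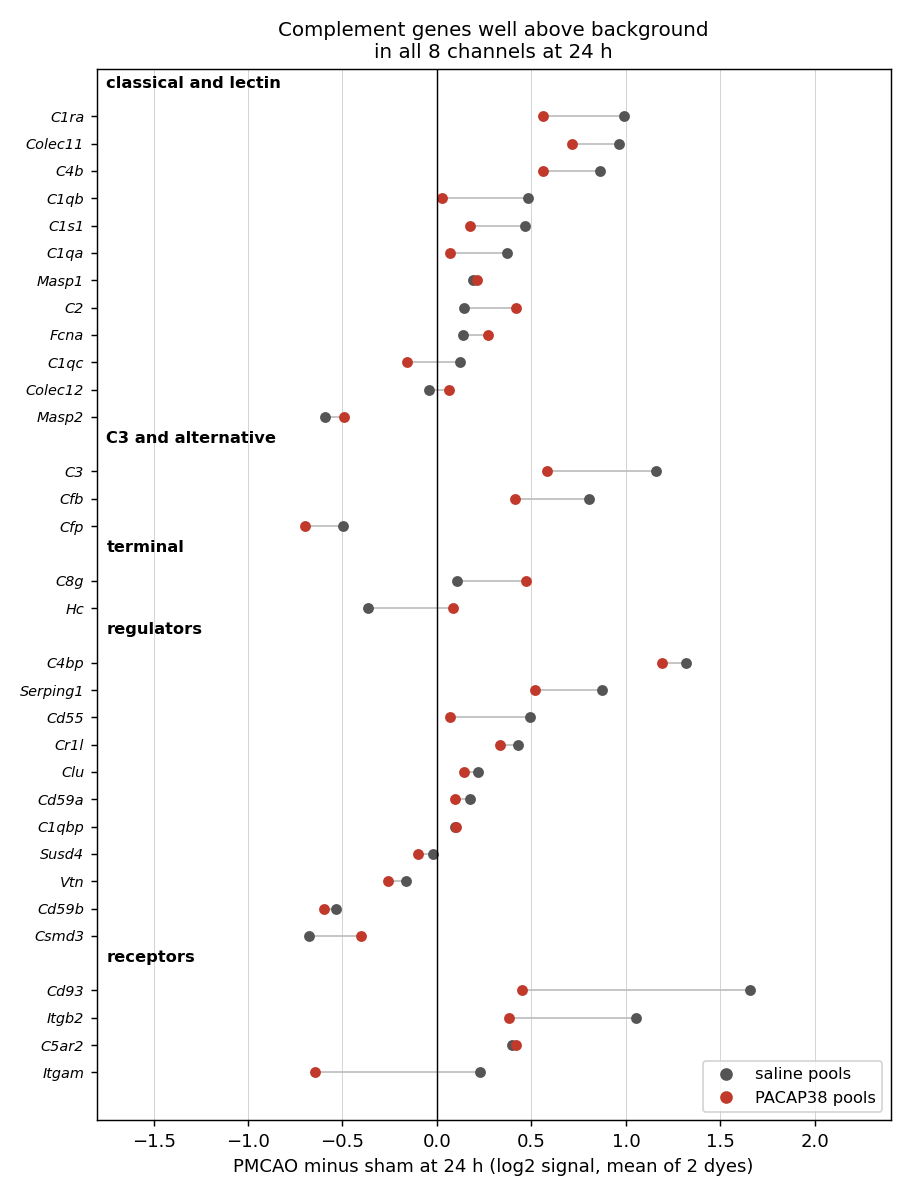
PMCAO minus sham at 24 h (log2 signal, mean of the 2 dyes) for 32 complement genes well above background in all 8 channels, with saline pools in gray and PACAP38 pools in red, grouped by role and ordered by the saline value. *Cd93*, *C3* and *Itgb2* lie further to the right in saline pools (1.66, 1.16 and 1.05) than in PACAP38 pools (0.45, 0.58 and 0.38), and *C3ar1* is not shown because 3 of its sham channels were not well above background.

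Over the 8 pools, with levels centred within each time, *C3* and *Serping1* correlated at r = 0.94 and *C4b* and *Serping1* at r = 0.83, while *C3* and *C1qb* gave r = -0.00. The pools of one surgery share arrays, and the sham array that stood apart enters all these values. By the same measure the closest genes among 23225 probes were 2410076I21Rik, *Def6* and *Glipr2* for *C3* (r = 0.99 to 1.00), *Fcgr3*, *Mafk* and *Dok2* for *C4b* (r = 0.99 to 1.00) and *Anxa2*, *Gimap6* and *Iqgap1* for *Serping1* (r = 0.99 to 1.00). For *C3ar1* they were *Slc36a4*, 1810032O08Rik and *Mslnl*, for *C5ar1* *Hspb6*, *Batf2* and *Rinl*, and for *Cd55* *Lnpep*, 2010109N14Rik and *Trdmt1*. For *C1qa* they were *Eif4g1*, *Dapk3* and *Prss50* (r = 0.95 to 0.96), for *C1qb* *Otog*, *Bicd2* and *Actn1* (r = 0.99 to 1.00) and for *Cfb* *Gabarap*, *Cdca4* and 4930467M19Rik (r = 0.94 to 0.96). *C3ar1* was well above background in 8 and *C5ar1* in 1 of 16 channels, so many of their levels lie near background. All these genes were picked as the highest of 23225 probes over 8 pools, and whether the choice alone gives such r was not tested.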

How the data were processed

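RNA of 8 pools was read on 8 two-colour arrays. The authors scanned them and deposited Feature Extraction output (by the file headers version 9.5.1.1 for the 6 h slide, 9.5.3.1 for the other). Their deposited log10 ratios divide the red (Cy5) by the green (Cy3) signal of a spot, with background and dye bias removed by the program. Intensity was deposited as mean, local background and processed signals of each channel. Deposited flags mark outliers, saturation and spots well above background. A further table from the authors, deposited with these files, holds the ratio of processed Cy5 over Cy3, and where PACAP38 was in Cy3 the deposited numbers carry a minus sign before that ratio and were treated as a score. Second copies of 3 files were identical and not used. The depth of arrays is not counted, and the number of pools limits the precision.

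Ratios were put on the log2 scale with saline as the denominator, outlier and control spots were left out, the spots of a probe were averaged, and then the 2 arrays. For PMCAO over sham, log2 processed signals were scaled to the 75th percentile of each channel and averaged to pools. The 8 pools entered 1 limma fit (version 3.58.1, R 4.3.3) with 4 groups, the drug as covariate and 3 residual degrees of freedom, with Benjamini-Hochberg adjustment at 0.05 over all probes. Ratios of the 4 comparisons were tested with limma in the same way. The 1.5-fold and 0.75-fold limits are those that the authors used in their results. Lower limits of folds used the lowest signal counted as well above background in each channel. The arrays carry the same replicate numbers in each comparison. The numbers mark the dye orientation, so the fit with the replicate number as a block used the 16 channels. The fits were tested on simulated data. RefSeq named 22951 of 41174 probes, the files 11758, and 6465 had no name.

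The members and lists were chosen with earlier results of these data known. The text names all 9 members with all probes, other complement genes past the adjusted threshold in PMCAO over sham at either time or past a limit on both arrays and well above background for PACAP38 (*Cpn1*, *Cd46* and *Cfi* are named outside this rule, after their values were seen, and 1 gene within it is not reported here), and for each member the 3 genes with the highest Pearson r over 8 pools among probes well above background in at least 4 pools. Alternatives were normexp (offset 50) with loess, the deposited table, each array alone, outlier spots kept, stricter limits, other scalings, no covariate, a prior following the mean signal, the replicate block, only probes well above background, and each pool or pair left out. Taking arrays as samples was added after seeing the data. Python 3.11.15 (numpy 2.4.6, pandas 2.3.3) made the tables and matplotlib 3.10.9 the plots.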

Additional observations from a re-analysis of the deposited data

Results flagged for a closer look

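The effect of PMCAO over sham differed between 24 h and 6 h by test for a pair of member probes. For *C3* the log2 difference was 1.14 (limma adjusted p = 0.021) and for the dimmer *C3ar1* probe it was 2.74 (limma adjusted p = 0.00743), which is no measured size, since none of its 6 h channels and no sham channel at 24 h was well above background. Time and slide cannot be told apart, and neither probe was called with arrays as samples.

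In 3 further cases both dye-swapped arrays of one comparison lay above 0 and both of another below 0, with all channels well above background. *C1qa* differed in its log2 ratio of PACAP38 over saline between PMCAO and sham at 6 h by -0.67, and *C4b* by -0.45. *Cd55* differed between 24 h and 6 h in PMCAO by -1.11 with its brighter probe, while the dimmer probe, also well above background, was at -0.22 at 6 h and -0.02 at 24 h. The difference within these pairs of pools was not tested, since each comparison is 1 pair of pools.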

How the results depend on the processing

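Counts of member probes (of 13) moved with many settings, and the causes were not tested. For PACAP38 over saline, the probes past a limit numbered 2 (sham, 6 h), 4 (PMCAO, 6 h), 1 (sham, 24 h) and 5 (PMCAO, 24 h). With normexp and loess these became 0, 0, 0 and 2. Past the limit on both arrays were 0, 0, 0 and 1. With 1.5-fold either way, the sham 6 h count was 1 and the PMCAO 24 h count 1. With only probes well above background, the sham counts were 1 at 6 h and 0 at 24 h. From 1 array, the count was 3 or 4 in sham at 6 h and 1 or 2 in sham at 24 h.

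For PMCAO over sham, limma called 3 member probes at 6 h, 2 at 24 h and 2 for the difference of the times. Of all probes it called 42.9%, 3.18% and 27.1%. With the replicate number as a block the member counts were 0, 1 and 0 (12%, 1.63% and 0.471% of all probes). With arrays as samples they were 0, 0 and 0 (0.0138%, 0.349% and 0% of all probes). The numbers mark the dye orientation. At 24 h the count was 4 with normexp, 4 without the covariate, 5 with a prior that follows the mean and 4 among probes well above background. For the difference it was 4 with normexp and 4 with that prior. The share of all probes called under these alternatives is not given here, so these counts are no result about the members. With 1 pool or 1 array left out, it ranged from 0 to 6 at 6 h, from 0 to 1 at 24 h and from 0 to 5 for the difference. Array 2 alone gave the 6 at 6 h, where 59.6% of all probes were called, and the 5 for the difference, where 46.3% were. Array 1 alone gave 0 at 6 h, where 0.851% of all probes were called. Over all probes, 42.9% were called at 6 h, and 0.0138% with arrays as samples.

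In single pools, 7 probes (saline) and 3 (PACAP38) were past a limit at 6 h, and 7 and 3 above it at 24 h. With normexp these were 3, 1, 3 and 0, and array 2 alone gave 7 for PACAP38 at 6 h. Of the single values past a limit for PACAP38 over saline, 3 turned direction, and smaller values that changed sign with the array are not listed. *Cfb* in sham at 6 h had a log2 ratio of 0.17 on array 1 and -1.56 on array 2, and *C3ar1* in PMCAO at 6 h one of 1.60 and -0.26. *C5ar1* in PMCAO at 6 h gave 0.0087 with normexp and, by array, 0.19 and -1.40. *Cd55* in PMCAO over sham at 24 h gave -0.050 without the PMCAO saline pool. The *C3* difference between the times was no longer called under the block (adjusted p = 0.119).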
